A study of Homo sapiens with 6 samples.

Results

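The genes described here encode the subunits of the mitochondrial respiratory chain and of the ATP synthase. They were taken from a table of counts per transcript by gene symbol: nuclear genes named NDUF followed by A, B, C, S or V and a digit, UQCR, COX4 to COX8, ATP5, SDHA to SDHD and CYC1, without pseudogenes or symbols holding a hyphen, and the protein coding genes of the mitochondrial genome. This gave 100 genes with 649 transcripts, of 40173 genes and 151453 transcripts that the table assigns to a gene. Of the 100 genes, 87 are nuclear and 13 are encoded in the mitochondrial genome. Complex I held 43 genes, complex II 4, complex III 11, complex IV 20 and complex V, the ATP synthase, 22. NDUFA4, NDUFA4L2 and COX7A2L were counted with complex IV, and ATP5IF1, the inhibitor of the enzyme, with complex V. NDUFAB1 and the assembly factors do not match the symbols and are not members.

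The libraries came from HCT116, a human colorectal cancer cell line, with 3 libraries labelled MOCK and 3 labelled CYGB. CYGB encodes cytoglobin, a haem protein that binds oxygen. MOCK cells received a control lentivirus, and CYGB-overexpressing cells a lentivirus carrying the CYGB coding region fused to a FLAG tag, both under puromycin selection. Both groups were otherwise of the same line, grown in the same medium and at the same range of passages. The series text calls the 3 libraries of a group biological replicates. The sources used here do not state whether they came from separate transductions, or whether clones were picked, so the p-values measure the spread between these libraries only.

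Library totals ranged from 58138393 to 66035266 counts. Counts of CYGB itself followed the labels, at 10, 28 and 34 in MOCK against 34935, 27681 and 32333 in CYGB. Of 9 colorectal epithelial markers, 6 exceeded 10 CPM (counts scaled to library size) in every library, VIL1 and CEACAM5 stayed under 1 CPM, and CDX1 was not in the table. The summed level of these markers was 4128 to 4602 CPM in MOCK and 4200 to 4490 CPM in CYGB. Of 9 markers of blood, vessel, stromal and liver cells, 6 stayed under 1 CPM in every library, with sums of 47.7 to 52.9 CPM in MOCK and 49.6 to 57.6 CPM in CYGB, nearly all of it COL1A1.

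The respiratory chain passes electrons from NADH, through complex I, and from succinate, through complex II, to ubiquinone, then through complex III and cytochrome c to complex IV, which reduces oxygen to water. Complexes I, III and IV pump protons across the inner mitochondrial membrane, and complex V uses the returning protons to make ATP. All complexes except complex II combine subunits of the nuclear and the mitochondrial genome. The study asked how cytoglobin acts on ferroptosis, an iron-dependent form of cell death, in colon cancer cells, and also measured mitochondrial function. The counts describe the transcripts of the respiratory machinery in both groups, except for mitochondrially encoded genes named below whose counts cannot be read as mRNA levels.

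Most subunit genes differed little between MOCK and CYGB. Of the 100 genes, 93 passed edgeR's expression filter, 84 nuclear and 9 mitochondrially encoded. Their median log2 fold change, CYGB against MOCK, was -0.06, beside -0.01 for all 19987 genes tested. Of the 93, 31 had positive and 62 negative values, beside 9755 positive and 10232 negative over all genes tested. Within 0.5 of zero on the log2 scale lay 85 members (91.4%, beside 81.1% of all genes). The median standard error of the nuclear members was 0.15, beside 0.26 for all genes. The median was -0.07 for nuclear and -0.01 for mitochondrially encoded members.

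A single member, ATP5F1A, which encodes the alpha subunit of the catalytic head of the ATP synthase, passed the threshold of the study's methods, an unadjusted p of at most 0.01 with a ratio of at least 2 or at most 0.5. Over all genes the share was 0.565%, and 0.280% for the higher direction alone. Without MOCK library 1, 0 members passed. No member reached an adjusted p under 0.05 with edgeR (0.0550% of all genes did), and 1, ATP5F1A, did with DESeq2. An unadjusted p under 0.05 was reached by 4 members, beside 4.54% of all genes: ATP5F1A and NDUFB9 were higher, NDUFB4 and NDUFA9 lower. This count was 11 without MOCK library 3, and the share of all genes in that fit is not given here. Over all genes, too, more passed the threshold of the methods with 1 library left out, 124 to 177 against 113. The 3 libraries of one group did not overlap with those of the other for 6 of the 93 members, beside 11.0% of all genes. Of these, ATP5F1A, NDUFB9 and NDUFS7 were higher in CYGB (5.72% of all genes), and NDUFB4, COX7B and NDUFA4 were lower (5.31%).

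**Figure D1:**
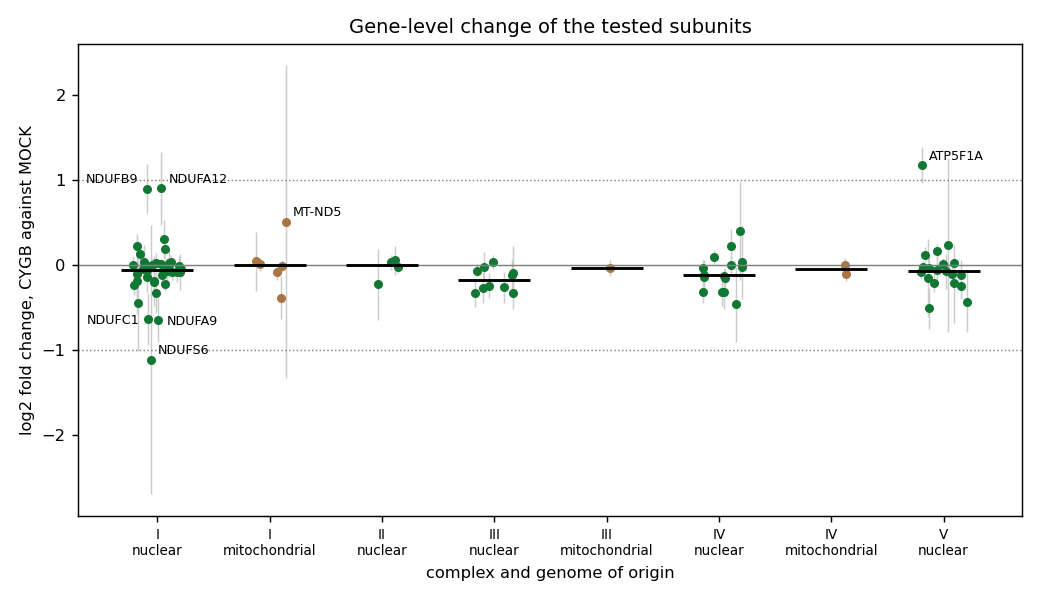
Log2 fold change of each tested subunit gene, CYGB against MOCK, by complex and genome of origin. Points are genes, grey bars 1 standard error of the edgeR fit, black lines group medians and dotted lines ratios of 2 and 0.5; most points lie near 0, ATP5F1A stands at 1.18, and NDUFS6 and MT-ND5 have wide error bars.

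The summed levels of each complex overlapped between the groups. In bulk RNA, fewer cells expressing a gene and less of its RNA per cell cannot be told apart, and all levels are relative to the library. The nuclear members together summed to 9370 ± 540 CPM in MOCK, against 9366 ± 504 CPM in CYGB (SD, n = 3 throughout). The nuclear subunits of complex I reached 2443 ± 160 CPM in MOCK, against 2390 ± 121 CPM in CYGB. Complex II reached 461 ± 64.3 CPM in MOCK, against 443 ± 64.9 CPM in CYGB.

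Complexes III and IV had slightly lower mean sums in CYGB, within the spread of the libraries. The nuclear subunits of complex III summed to 1588 ± 187 CPM in MOCK and 1440 ± 126 CPM in CYGB, a log2 ratio of -0.14. Those of complex IV summed to 1749 ± 136 CPM in MOCK and 1624 ± 135 CPM in CYGB, a log2 ratio of -0.11. Complex V had the opposite sign, with 3129 ± 191 CPM in MOCK and 3468 ± 177 CPM in CYGB, a log2 ratio of 0.15. Most of this difference lay on ATP5F1A: without it the sums were 2877 ± 156 and 2898 ± 173 CPM, a log2 ratio of 0.01. With protein coding transcripts only, ATP5F1A included, the log2 ratio was -0.09.

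The 13 mitochondrially encoded members, all subunits that sit in the membrane core of their complexes, together summed to 47047 ± 7239 CPM in MOCK, against 45913 ± 2924 CPM in CYGB. They held 3.95 to 5.36% of the counts assigned to genes in MOCK and 4.36 to 4.81% in CYGB. The spread in MOCK came from MT-ND5 and MT-CO3, each of which differed from its own group in 1 library. Without these genes the sums were 41680 ± 1935 CPM in MOCK and 40960 ± 2525 CPM in CYGB.

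**Figure D2:**
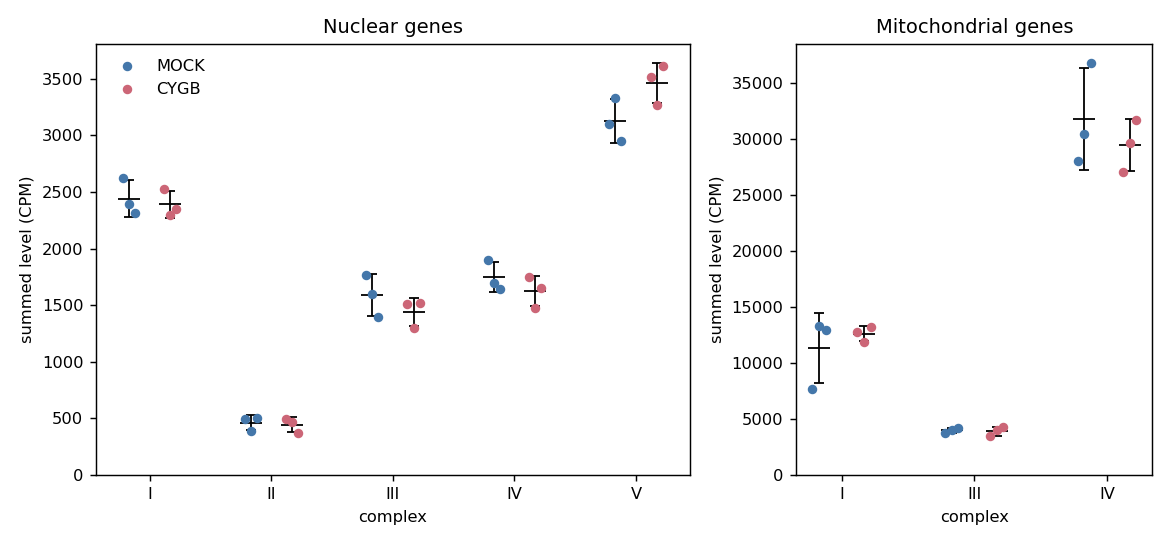
Summed level of the subunits of each complex in CPM, nuclear genes left and mitochondrially encoded genes right, on separate scales that start at 0. Points are the 3 libraries of a group, black marks the mean and SD; the groups overlap in every complex, and 1 MOCK library is low for mitochondrially encoded complex I.

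ATP5F1A was the member past the threshold, and nearly all of its counts lay on one transcript in MOCK and on another in CYGB. The gene (ENSG00000152234) lies on the minus strand of chromosome 18, from 46080248 to 46104334 of GRCh38. Its counts were 8488, 17326 and 12773 in MOCK, against 26848, 29170 and 31846 in CYGB. Every CYGB library was above every MOCK library, with MOCK library 1 the lowest. In CPM, MOCK cells had 252 ± 74.2 and CYGB-overexpressing cells 571 ± 37.6. edgeR's quasi-likelihood test gave a log2 fold change of 1.18 with a standard error of 0.22 (adjusted p = 0.754). DESeq2 gave an adjusted p of 0.00275, and over all alternatives it ranged from 0.00275 to 0.977. Without MOCK library 1 the log2 fold change was 0.98, short of the threshold.

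The table lists 14 ATP5F1A transcripts, and 2 of them held 93.3 to 99.4% of the counts of the gene in every library. ENST00000398752 is a protein coding transcript of 5818 bases with a long last exon, and its reading frame has 553 codons. ENST00000590156, of 1931 bases, is typed in GENCODE 29 as a target of nonsense-mediated decay, the pathway that degrades mRNAs whose stop codon lies well upstream of an exon junction. Its reading frame ends after 58 codons, with 10 exon junctions behind the stop codon. The last of these lies 1476 bases downstream of the stop.

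The difference between the reading frames starts at the end of exon 2, which both transcripts share from 46095053 to 46095131. In ENST00000590156 this exon runs on for 73 bases, from 46095052 down to 46094980, a length not divisible by 3. The sequences below, from GENCODE 29 and read 5′ to 3′ on the minus strand, show where the transcripts part. Lower case marks the last 22 shared bases of exon 2. Capitals mark what follows, which in ENST00000590156 (chr18:46095015-46095074) is the extension up to its stop codon TAG, and in ENST00000398752 the first 38 bases of exon 3 (chr18:46091814-46091851).
ENST00000590156: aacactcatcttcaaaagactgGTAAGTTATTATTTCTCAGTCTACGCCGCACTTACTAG
ENST00000398752: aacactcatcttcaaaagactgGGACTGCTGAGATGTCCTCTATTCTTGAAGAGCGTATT
The extension opens with GTAAGT, the letters at which the intron of ENST00000398752 begins.

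The long protein coding transcript was lower in CYGB. ENST00000398752 had 8241, 17101 and 11916 counts in MOCK and 1500, 724 and 782 in CYGB. These values correspond to 243 ± 75.3 CPM in MOCK and 19.6 ± 8.74 CPM in CYGB, without overlap. edgeR fitted a log2 difference of -3.62 with a standard error of 0.42 (adjusted p = 0.142). Over all alternatives, with edgeR or DESeq2, the adjusted p ranged from 1.95e-10 to 0.995. This transcript took 93.3 to 98.7% of the counts of the gene in MOCK and 2.46 to 5.59% in CYGB.

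The transcript typed nonsense-mediated decay was seen in CYGB libraries alone. ENST00000590156 had 0 counts in all 3 MOCK libraries and 25086, 28257 and 30786 in CYGB, where it took 93.4 to 96.9% of the counts of the gene. In CYGB it reached 546 ± 45.6 CPM, 9177-fold higher than a floor of 3 counts per MOCK library. The floor covers counting error only. Since the assignment of reads among isoforms is not stated, this ratio is not a lower bound on the change of the transcript. ENST00000590156 was the only member transcript with an adjusted p under 0.05 from edgeR (adjusted p = 0.0177). The adjusted p from edgeR was 0.105 to 0.150 when any CYGB library was left out, and the unadjusted p stayed under 0.01 in each of these fits. Over all alternatives, with edgeR or DESeq2, the adjusted p ranged from 2.36e-41 to 0.995.

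**Figure D3:**
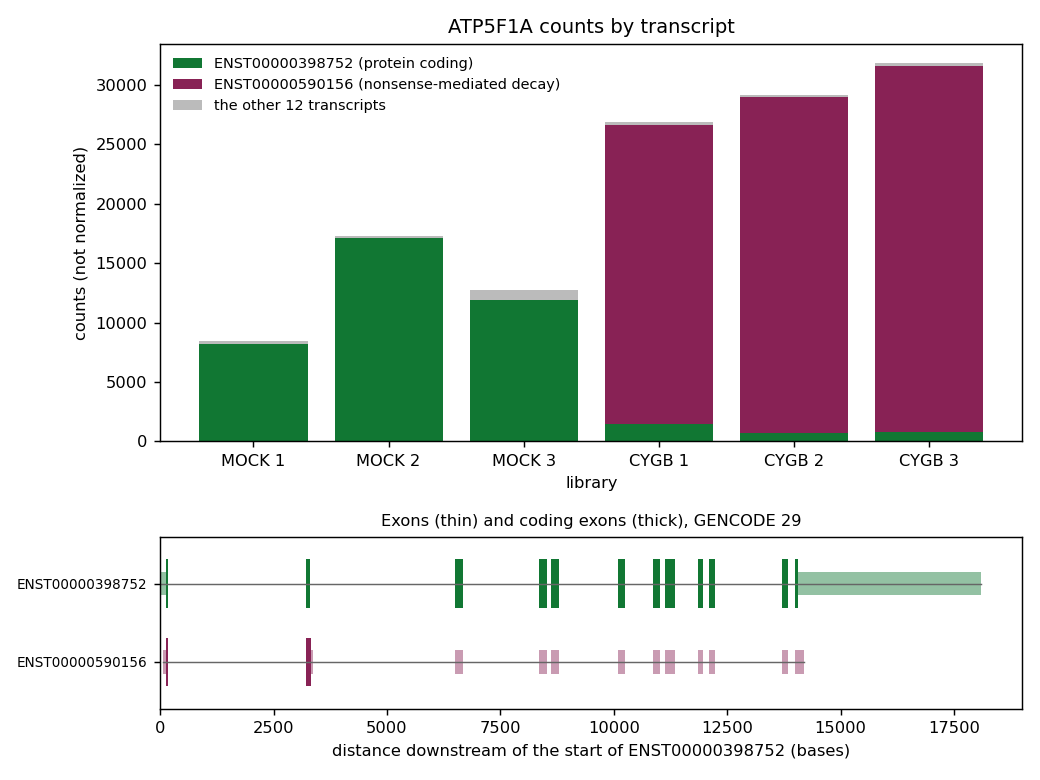
Top, counts of ATP5F1A by library, split into ENST00000398752, ENST00000590156 and the other transcripts; the MOCK bars are almost all ENST00000398752 and the CYGB bars almost all ENST00000590156. Bottom, exons of both transcripts with coding parts thick, by distance from the start of ENST00000398752 in bases; the coding part of ENST00000590156 ends in exon 2.

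The direction of ATP5F1A therefore depended on the transcripts summed. Its protein coding transcripts had 8269, 17173 and 12621 counts in MOCK and 1646, 786 and 910 in CYGB, a log2 fold change of -3.52 (adjusted p = 0.181 from edgeR). Per length, the gene had 94.4 ± 23.9 TPM (counts divided by the length of each transcript and scaled to a common total) in MOCK and 570 ± 37.2 TPM in CYGB, a larger ratio than in CPM since the counts lay on a shorter transcript. Among the 100 genes its rank by TPM was 68 in MOCK and 14 in CYGB. The share of nuclear member counts on transcripts typed nonsense-mediated decay was 1.09 to 1.31% in MOCK and 5.75 to 7.61% in CYGB. Without ATP5F1A it was 1.12 to 1.33% in MOCK and 0.714 to 1.54% in CYGB.

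Several values are given beside the counts of this gene, and none of them tests how these counts were divided. The sources used here do not state how reads were assigned among isoforms. Of the 150-base windows of ENST00000590156, 8.19% occur in no other ATP5F1A transcript, beside 69.1% for ENST00000398752. A further protein coding transcript with a short last exon, ENST00000282050, has 0.334% such windows and 0 counts in all libraries. Among assembled transcripts without a gene, 4 were lower in CYGB without overlap by an amount between 50 and 150% of the rise of ATP5F1A, which was 16426 counts on average. They were picked from 21225 assembled transcripts by the direction and size of the difference, not by position. How many rose by as much is not given here. The part of these assembled transcripts and of the read assignment in the result was not tested. The 6 ATP5F1A pseudogenes together had 3 to 35 counts. HAUS1, which overlaps the gene on the opposite strand, had 1769 to 2380 counts in every library.

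None of the other F1 subunits passed the threshold. ATP5F1B, the catalytic beta subunit, had 47231, 58665 and 51512 counts in MOCK and 55784, 56460 and 66621 in CYGB, with overlapping groups. edgeR gave a log2 fold change of 0.16 with a standard error of 0.08 (adjusted p = 0.963). ATP5F1C, the gamma subunit of the central shaft, had a log2 fold change of -0.02 and ATP5F1D, the delta subunit, of -0.15. ATP5F1D varied among libraries, from 1945 to 5598 counts in MOCK and from 1699 to 3912 in CYGB. ATP5F1E, the epsilon subunit, had the lowest value of complex V, with 6972, 5425 and 4567 counts in MOCK and 4993, 3603 and 3604 in CYGB (log2 fold change -0.51, standard error 0.24, adjusted p = 0.963 from edgeR).

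ATP5PB, of the peripheral stalk, and ATP5IF1, the inhibitor, had log2 fold changes of 0.02 and -0.12. ATP5MC1, ATP5MC2 and ATP5MC3 are nuclear genes for one protein, the c subunit of the rotating ring. Their log2 fold changes were 0.13, -0.21 and 0.01. A minor transcript of ATP5MC3 passed the threshold of the methods. This transcript, ENST00000392541, is protein coding, 842 bases long, and had 315, 416 and 595 counts in MOCK and 1144, 1931 and 1659 in CYGB, with every CYGB library above every MOCK library (log2 fold change 1.83, standard error 0.34, adjusted p = 0.405 from edgeR). The main transcript of 5484 bases, ENST00000284727, had 9345, 9981 and 9784 counts in MOCK and 8996, 7843 and 9373 in CYGB (log2 fold change -0.16, standard error 0.10), short of the threshold. Per length ATP5MC3 was at 111 ± 2.58 TPM in MOCK and 162 ± 6.81 TPM in CYGB. Since its log2 fold change in counts was 0.01, this gap came from counts placed on shorter transcripts. How reads were assigned among isoforms is not stated.

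Among all 649 member transcripts, 453 were tested and 11 passed the threshold of the methods, beside 1.02% of all transcripts. Of these, 4 were higher in CYGB (0.540% of all transcripts) and 7 lower (0.482%). With edgeR, 1 of the 453 had an adjusted p under 0.05, beside 0.0150% of all transcripts, and 0 when any CYGB library was left out. Apart from the transcripts of ATP5F1A and ATP5MC3, those with the smallest p were low. NDUFS7, a core iron-sulfur subunit of complex I, had 3 such transcripts. ENST00000540530 had 49, 53 and 33 counts in MOCK and 0 in every CYGB library, and ENST00000539480 had 86, 86 and 42 counts in MOCK and 0 in every CYGB library. ENST00000538662, with a retained intron, went the other way, with 14, 12 and 21 counts in MOCK and 98, 85 and 58 in CYGB (log2 fold change 2.34, adjusted p = 0.363 from edgeR). At the level of the gene, NDUFS7 had 2937, 3000 and 3608 counts in MOCK and 3653, 3630 and 4099 in CYGB (log2 fold change 0.23, standard error 0.11, adjusted p = 0.963 from edgeR), so the groups were just apart. The remaining named transcripts, ENST00000245448 of ATP5S and ENST00000503283 of NDUFA13, had 15 to 33 counts in MOCK and 0 in CYGB.

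Complex I had the widest range of its nuclear members, from -1.11 for NDUFS6 to 0.90 for NDUFA12, with a median of -0.05. Of its core subunits, NDUFV1 and NDUFV2, which form the NADH-oxidizing site, had log2 fold changes of -0.01 and -0.04. NDUFS1 and NDUFS3 had values of 0.01 and 0.03, while the iron-sulfur subunits NDUFS8 and NDUFS7 had 0.19 and 0.23. NDUFS1 was also among the steadiest, with 138 ± 4.21 CPM in MOCK and 139 ± 1.21 CPM in CYGB.

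The complex I members with an unadjusted p under 0.05 were accessory subunits, which surround the catalytic core, and were singled out after their values were seen. NDUFB9 had 2651, 3373 and 1475 counts in MOCK and 4832, 4435 and 4958 in CYGB. All CYGB libraries were higher, and MOCK library 3 was the lowest (log2 fold change 0.90, standard error 0.29, adjusted p = 0.963 from edgeR). The difference lay on its transcript ENST00000276689, with 1490, 2023 and 856 counts in MOCK and 3479, 3615 and 4084 in CYGB, and TATDN1 and MTSS1 overlap the gene on the opposite strand. NDUFB4 had 3819, 4027 and 4067 counts in MOCK and 3266, 3560 and 3578 in CYGB, a small difference with little spread (log2 fold change -0.22, standard error 0.08, adjusted p = 0.963 from edgeR). NDUFA9 had 2911, 2497 and 4607 counts in MOCK and 2466, 1816 and 2229 in CYGB (log2 fold change -0.64, adjusted p = 0.963 from edgeR), with overlapping groups in CPM and MOCK library 3 high.

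The extremes of complex I varied widely within a group. NDUFS6, an accessory subunit bound to the iron-sulfur arm, had 2259, 65 and 2034 counts in MOCK and 70, 1897 and 122 in CYGB. It was thus high in 2 MOCK libraries and 1 CYGB library and low in the others, and its log2 fold change of -1.11 had a standard error of 1.58. With 1 library left out the value ranged from -3.99, without CYGB library 2, to -0.57, without MOCK library 1. Assembled transcripts without a gene and with a mean of at least 300 counts were compared with NDUFS6. Of these, 17 were more than 5 times as high in the libraries where NDUFS6 was low as in the others. These 17 were picked by this pattern, and their part was not tested. How many were compared, or went the same way as NDUFS6, is not given here. NDUFA12 had 493, 581 and 597 counts in MOCK and 759, 1803 and 595 in CYGB, and the mean of CYGB rested on library 2 (log2 fold change 0.90, standard error 0.43, adjusted p = 0.963 from edgeR, and 0.26 on the log2 scale without that library). NDUFA7 ranged from 200 to 1204 counts within MOCK and from 477 to 495 within CYGB. RPS28 overlaps NDUFA7 on the opposite strand and had 5391 to 11305 counts, and strand use in counting is not stated.

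**Figure D4:**
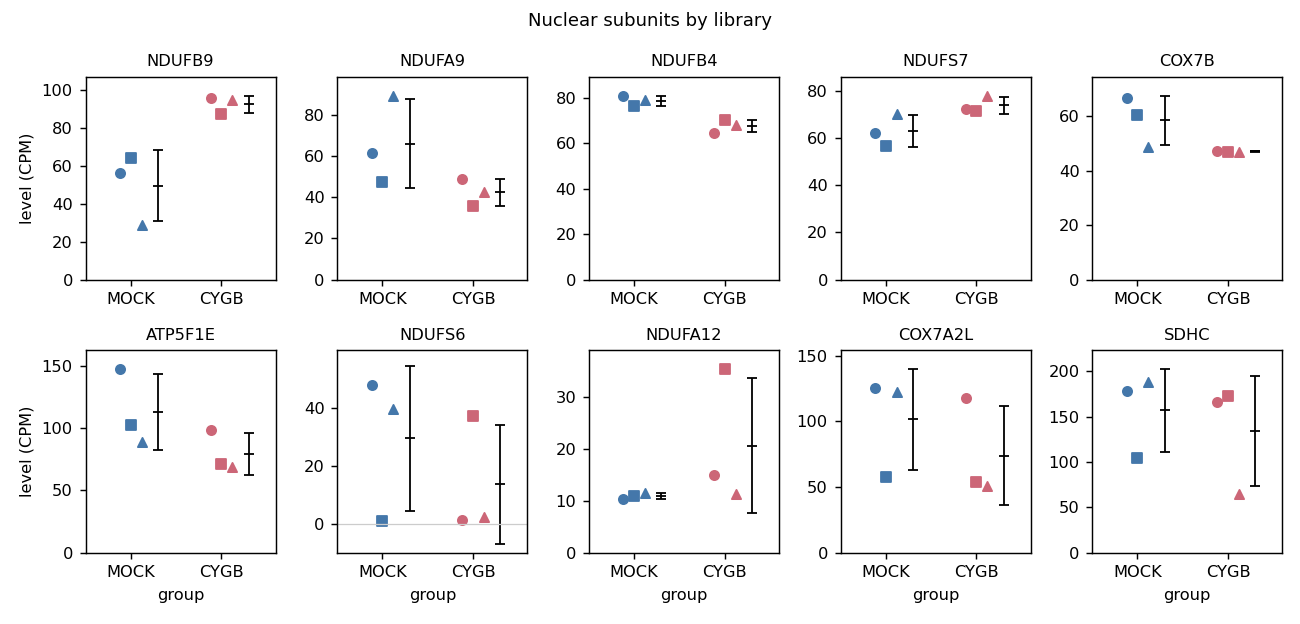
Level in CPM of 10 nuclear subunits in the 3 MOCK (blue) and 3 CYGB (red) libraries, with circles, squares and triangles for libraries 1, 2 and 3 and black marks for the mean and SD. NDUFB9, NDUFB4, NDUFS7 and COX7B separate the groups, while NDUFS6, NDUFA12, COX7A2L and SDHC differ as much within a group as between groups.

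The succinate dehydrogenase of complex II, the complex with no mitochondrially encoded subunit, had a median of 0.01. SDHA, the flavoprotein, and SDHB, the iron-sulfur subunit, had log2 fold changes of 0.03 and -0.02. SDHD, a membrane anchor, had 0.06. SDHC, the other anchor, had 8436, 5521 and 9670 counts in MOCK and 8370, 8752 and 3404 in CYGB. CYGB library 3 was low, and leaving it out turned the log2 fold change from -0.23 (standard error 0.41) to 0.11.

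Of the nuclear subunits of complex III, 9 of 10 had negative values, with a median of -0.18, and none had an unadjusted p under 0.05. CYC1, cytochrome c1, was the lowest, with 17167, 17083 and 11956 counts in MOCK and 13827, 11573 and 12002 in CYGB. Its groups overlapped (log2 fold change -0.33, standard error 0.18, adjusted p = 0.963 from edgeR). UQCRFS1, the Rieske iron-sulfur protein, had a log2 fold change of -0.26, and the core proteins UQCRC1 and UQCRC2 had 0.04 and -0.07. Both MOCK libraries 1 and 2 were above every CYGB library for CYC1, UQCRFS1 and UQCRQ, and MOCK library 3 lay within or below the CYGB range.

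The nuclear subunits of complex IV had a median of -0.11, with 10 of 15 tested members negative. COX4I1, the largest nuclear subunit, had a log2 fold change of 0.10. COX5A, COX5B and COX6C had values of -0.31, -0.14 and -0.31, each with overlapping groups. COX7B had 3146, 3187 and 2505 counts in MOCK and 2381, 2391 and 2470 in CYGB. This amounted to 58.5 ± 9.10 CPM in MOCK, against 47.1 ± 0.0536 CPM in CYGB, and the fitted log2 difference was -0.31 with a standard error of 0.13 (adjusted p = 0.963 from edgeR). NDUFA4 was at 111 ± 5.96 CPM in MOCK and 101 ± 5.28 CPM in CYGB, with a log2 fold change of -0.13. Its groups were barely apart, with 106.93 CPM in the lowest MOCK library and 106.88 CPM in the highest CYGB library.

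The extremes of complex IV were COX7A1 and COX7A2L. COX7A1, an isoform typical of muscle, had 10 to 42 counts and a log2 fold change of 0.40 (standard error 0.57). COX7A2L, which takes part in joining complexes III and IV into supercomplexes, had 5918, 3030 and 6298 counts in MOCK and 5937, 2731 and 2664 in CYGB. It was high in 2 MOCK libraries and 1 CYGB library (log2 fold change -0.46, standard error 0.44). With 1 library left out the value ranged from -0.96, without CYGB library 1, to -0.24, without CYGB library 3. Some isoforms linked to other tissues were near the limit of detection: COX7B2, of testis, had 0 counts in all libraries, which allows up to 3 counts in each, COX8C had 0 to 10 and ATP5MGL 0 to 6. The low members COX6B2 and NDUFA4L2 had more, with 111 to 160 and 29 to 89 counts.

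Large gaps between libraries were counted for the subunits and for all genes. The highest library exceeded the lowest by over 3 times for 10 of the 93 members, beside 25.8% of all genes tested, and by over 10 times for 3, beside 7.11%. With a mean of at least 1000 counts, 6 of 82 members exceeded 3 times, beside 11.4% of all such genes, and 2 exceeded 10 times, beside 2.60%. The latter were NDUFS6 and MT-ND5. MT-CO3, with 7 to 292606 counts, did not pass the expression filter and is not in these counts.

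Of the 13 mitochondrially encoded genes, 7 had high counts in every library, 4 had almost none in any, and MT-ND5 and MT-CO3 differed between libraries of the same group. MT-CO1, the catalytic subunit of complex IV, had 960456, 1189709 and 1202095 counts in MOCK and 1030053, 1147686 and 1233777 in CYGB (log2 fold change 0.01, standard error 0.08). MT-CO2, which receives electrons from cytochrome c, had 364613 to 418772 counts in MOCK and 336987 to 428665 in CYGB (log2 fold change -0.10). MT-CYB, the cytochrome b of complex III, had 175929 to 213521 counts in MOCK and 174245 to 222281 in CYGB (log2 fold change -0.03). The groups overlapped for each of the 3 genes.

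Of the membrane subunits of complex I, MT-ND1 and MT-ND2 had log2 fold changes of 0.01 and -0.01. MT-ND3 varied more and had 34841, 29672 and 22509 counts in MOCK and 28712, 17291 and 22301 in CYGB (log2 fold change -0.38, standard error 0.25, adjusted p = 0.963 from edgeR). MT-ND6, the only member on the light strand of the mitochondrial genome, had 54842 to 66015 counts and a log2 fold change of -0.08. Whether counting used the strand is not stated, so its reads cannot be told apart from those of the opposite strand.

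MT-ND5 and MT-CO3 each had 1 library unlike all others. MT-ND5 had 36, 279995 and 263371 counts in MOCK and 234061, 244859 and 283973 in CYGB. It was near absent in MOCK library 1 alone, and its log2 fold change of 0.51 had a standard error of 1.84 and was -0.07 without that library. MT-CO3 had 7, 7 and 292606 counts in MOCK and 7, 7 and 8 in CYGB, so that it was at a high level in MOCK library 3 alone and was not tested. Assembled transcripts without a gene and with a mean of at least 300 counts were compared with both genes. Of these, 51 were more than 5 times as high where MT-ND5 was low as in the other libraries. For MT-CO3 the number was 171. These transcripts were picked by this pattern, and their part was not tested. How many were compared, or went the same way as either gene, is not given here.

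MT-ATP6 and MT-ATP8, both subunits of the ATP synthase, had 6 or 7 and 2 or 3 counts in every library. MT-ND4 had 12 to 14 and MT-ND4L 3 or 4. MT-ND3 and MT-CO2, their neighbours on the same polycistronic RNA, had at least 17291 and 336987 counts, and these 4 genes were low in both groups. Nuclear copies of mitochondrial genes held counts as well. The copy MTATP6P1 had 610 to 9462 counts, more than MT-ATP6 in every library, and MTND2P28 and MTCO1P12 had 15682 to 23584 and 13150 to 15927. The copies MTCO3P12 and MTND4P12 had few, with 76 to 112 and 0 to 170. How reads that fit more than 1 gene were assigned is not stated in the sources used here. The counts of MT-ATP6, MT-ATP8, MT-ND4, MT-ND4L, MT-ND5 and MT-CO3 therefore cannot be read as levels of the mRNA.

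**Figure D5:**
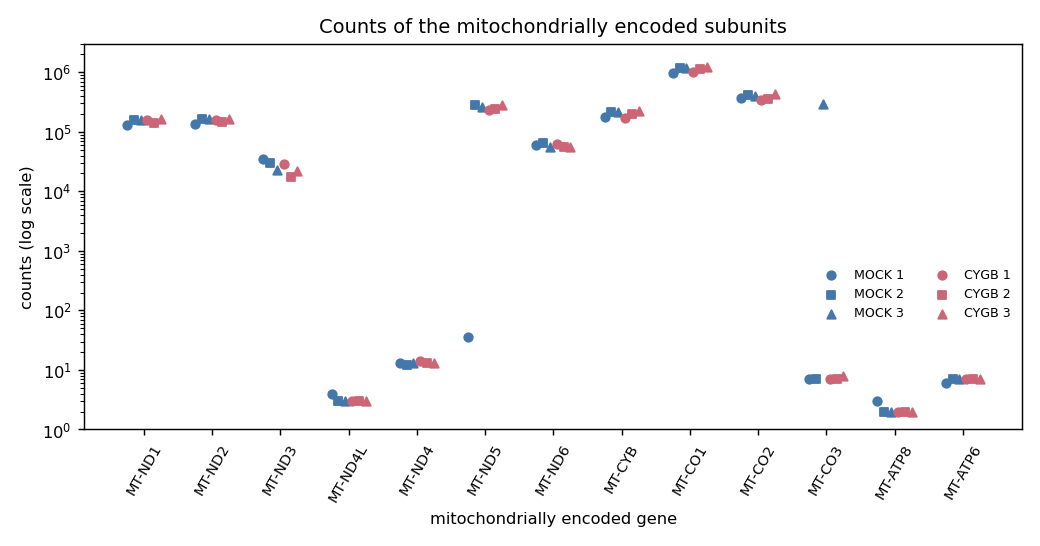
Counts of the 13 mitochondrially encoded subunits on a log scale, by library (MOCK blue, CYGB red; circles, squares and triangles for libraries 1, 2 and 3). The libraries coincide for most genes; MT-ND5 is low in MOCK 1 alone, MT-CO3 is high in MOCK 3 alone, and MT-ND4, MT-ND4L, MT-ATP8 and MT-ATP6 stay under 15 counts throughout.

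Per length, MT-CO1 was the most abundant member in both groups, with 27637 ± 2343 TPM in MOCK and 28238 ± 1913 TPM in CYGB. The most abundant nuclear member in both groups was ATP5F1B, with 1111 ± 73.8 TPM in MOCK and 1262 ± 65.9 TPM in CYGB. Of the nuclear members, 78 exceeded 10 TPM in MOCK, and their median level was 150 TPM in both groups.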

How the data were processed

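RNA-seq of 3 MOCK and 3 CYGB libraries of HCT116 cells was used. The values deposited by the authors are whole-number counts per transcript, not normalized, from paired-end reads. The submitters' processing notes name HISAT, HISAT2, DESeq2 and hg19, with no role given; of 151393 transcripts found in GENCODE 29, 99.5% lay at the same place in it, and coordinates are given for GRCh38. The counting tool, strand use and division of reads among isoforms are not given in the sources used here. Of 172678 transcripts, 21225 assembled ones carried no gene; these took 18.6 to 19.5% of each library and entered neither library sizes nor tests.

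Counts were summed per gene identifier. Genes and transcripts were filtered by filterByExpr (minimum count 10), scaled by TMM and fitted in edgeR 4.0.16 (R 4.3.3; glmQLFit, then glmQLFTest), with Benjamini-Hochberg adjustment over all 19987 genes or 66609 transcripts. CPM are TMM-scaled, and TPM use GENCODE 29 lengths. Sums, medians and shares of members were described without a test. Library totals of 58138393 to 66035266 counts set the counting error, and the floor covers counting error only.

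Named genes were all mitochondrially encoded members, core subunits, the highest and lowest nuclear member of each complex, every member past a threshold (1 gene of this rule is not reported here), the transcript with an adjusted p under 0.05 and the 8 with the smallest p past the threshold of the methods. Others are said to be chosen after their values were seen. So were NDUFA4, COX7B, NDUFA7, UQCRQ, COX6B2, NDUFA4L2, the main ATP5MC3 transcript and the nuclear copies of mitochondrial genes. Members and lists were chosen with earlier results of these data known. Same-numbered libraries did not deviate together (correlations 0.0322, 0.00672 and 0.0324), so the number was not a block. Pairs of libraries differed beyond sampling noise (chi-square per gene at least 102), which does not show that they were independent. Each counted as 1 replicate, as labelled. Alternatives were DESeq2 1.42.0, its size factors, other filters, the block, other library sizes, no mitochondrial genes, protein coding transcripts only and leaving out each library; sums without ATP5F1A, MT-ND5 or MT-CO3 were added after seeing the data. The scripts were tested on simulated counts.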

Additional observations from a re-analysis of the deposited data

How the results depend on the processing

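With only 3 libraries per group, a small difference in a subunit could not be told from library spread, and counts per isoform depend on read assignment that is not stated. Genes past the threshold of the methods numbered 113, against 263 with DESeq2, 62 under a stricter filter, which asks for a mean count of 50, and 124 to 177 with 1 library left out. Genes with an adjusted p under 0.05 numbered 11, against 108 with DESeq2 and 6 to 14 with 1 library left out. Members past the threshold numbered 1, and 0 without MOCK library 1 (range 0 to 1). Members with an adjusted p under 0.05 numbered 0 with edgeR and 1 with DESeq2, and those with an unadjusted p under 0.05 numbered 4, with a range of 3 to 11 over left-out libraries. Member transcripts past the threshold numbered 11, against 4 under the stricter filter, 7 with protein coding transcripts only and 8 to 13 with 1 library left out. Those with an adjusted p under 0.05 numbered 1, against 10 with DESeq2, 0 with protein coding transcripts only, which leaves out ENST00000590156, and 0 to 1 with 1 library left out. For these alternatives the shares over all transcripts are not given here, nor the shares of all genes with an unadjusted p under 0.05. The replicate numbers did not pair the libraries, and with the replicate number as a block 0 genes and 0 member transcripts had an adjusted p under 0.05, while 5 member transcripts and 1 member gene passed the threshold. The log2 ratio of the nuclear complex V sum was 0.15, against -0.088 with protein coding transcripts only and 0.010 without ATP5F1A. The median of nuclear members lay between -0.14 and 0.00 over left-out libraries and that of mitochondrially encoded members between -0.05 and 0.02.

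Of 41 named genes, 19 changed sign under some alternative. With protein coding transcripts only, the log2 fold changes were -3.52 for ATP5F1A, 0.16 for ATP5F1D, 0.11 for NDUFV1 and -0.026 for SDHD. Over left-out libraries the log2 fold change ranged from -0.051 to 0.0067 for ATP5F1C, -0.43 to 0.34 for ATP5F1D, -0.019 to 0.059 for ATP5MC3, -0.024 to 0.074 for ATP5PB, -0.24 to 0.65 for COX7A1, -0.051 to 0.061 for MT-CO1, -0.097 to 0.044 for MT-CYB, -0.029 to 0.070 for MT-ND1, -0.055 to 0.031 for MT-ND2, -0.020 to 0.11 for MT-ND4, -0.074 to 0.95 for MT-ND5, -0.014 to 0.031 for NDUFS1, -0.083 to 0.074 for NDUFV1, -0.0067 to 0.077 for SDHA, -0.059 to 0.010 for SDHB, -0.45 to 0.11 for SDHC, -0.087 to 0.15 for SDHD and -0.017 to 0.089 for UQCRC1. Leaving out 1 library removes samples; beyond that the cause was not tested.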

Other observations

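The proteins that assemble the complexes were looked at as well. Of 54 assembly factors, all were tested, as 55 gene identifiers, with a median log2 fold change of 0.00 and 0 past the threshold of the methods in edgeR, beside 0.565% of all genes, and 3 with an unadjusted p under 0.05, beside 4.54% of all genes. COX11, which delivers copper to complex IV, had 1078, 1404 and 1176 counts in MOCK and 806, 607 and 703 in CYGB, without overlap. This amounted to 24.1 ± 2.16 CPM in MOCK, against 13.8 ± 2.03 CPM in CYGB (log2 fold change -0.81, standard error 0.16, adjusted p = 0.849 from edgeR), short of a ratio of 0.5. COX16, another complex IV factor, had a log2 fold change of -0.38 and ACAD9, a complex I assembly factor, of 0.74, both with an adjusted p of 0.963 from edgeR. These 3 genes were chosen after their values were seen. Of the 55 identifiers, 83.6% lay within 0.5 of zero on the log2 scale, beside 81.1% of all genes.

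Of 31 genes for mitochondrial genome expression and biogenesis, 30 were tested, and all of them lay within 0.5 of zero on the log2 scale, beside 81.1% of all genes, with a median of 0.02 and 0 with an unadjusted p under 0.05 in edgeR, beside 4.54% of all genes. Of 21 other mitochondrial proteins, such as carriers, import and matrix proteins, all were tested with a median of 0.01. Their values ranged from -1.19 to 0.99, and 81.0% lay within 0.5 of zero, beside 81.1% of all genes. In edgeR 1 had an unadjusted p under 0.05, beside the same 4.54% of all genes. This was SLC25A6 (log2 fold change -1.19), with overlapping groups.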
